A study of Mus musculus with 16 samples.

Results

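The cytosolic ribosomal protein genes were examined in mouse liver. They were taken by symbol: Rps or Rpl with a number, together with Rplp0, Rplp1, Rplp2 and Rpsa, leaving out Rps7 and symbols that end in -ps. This gave 80 genes of 15544 rows, 32 named for the small 40S subunit and 48 for the large 60S subunit. Of these, 79 were annotated as protein-coding, and Rps4l was annotated as a transcribed processed pseudogene. All 80 passed the filter on low values (at least 4 libraries at 1 or above).

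The data comprise 16 liver RNA libraries from female mice aged 27 weeks, 4 in each of 4 groups. All mice carried the floxed Esr1 fl/fl allele of oestrogen receptor alpha on a mixed CD-1;129P2 background. Controls carried no Cre. Mutants, Esr1 Nkx2.1-cre, also carried Cre under Nkx2-1 control, which is active in the ventral hypothalamus (Nkx2-1 is also known from lung and thyroid) and not in hepatocytes, so liver Esr1 does not check the genotype (on chow, 7.59 to 15.9 in controls and 8.02 to 19.6 in mutants). In each genotype, 1 group stayed on chow and 1 received a high-fat diet (HFD) for 17 weeks. The sources used here name no pooling of livers and do not say that each library is a separate mouse, so p-values measure the spread between these libraries.

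Library titles carry numbers that fall into 4 runs, each within a single diet. The labels do not say what the numbers mean, and replicate numbers here only name libraries in accession order. Here they are lettered by number. On HFD, series A (titles L231 to L234) holds 3 controls and 1 mutant, and series D (L338 to L342) holds 3 mutants and 1 control. On chow, series B (L314 to L316) holds 2 controls and 1 mutant, and series C (L324 to L328) holds 2 controls and 3 mutants. Values are TPM (length-adjusted shares of a library) that the authors had adjusted by size factors, with column totals of 905897 to 1119703 and unknown depth. All 10 hepatocyte markers were above 0 in every library, and their sum ranged from 89024 to 138886. In whole liver, fewer cells of a type and less RNA per cell cannot be told apart.

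Each ribosome holds a single copy of nearly every ribosomal protein, and the proteins are made in step with ribosomal RNA. Most of their mRNAs start with a 5′ terminal oligopyrimidine (TOP) tract, a C followed by a run of C and T. Through this tract their translation follows mTOR, the kinase that senses nutrients and insulin, by way of the binding protein Larp1. In liver, ribosome content is known to follow feeding and growth.

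The start of transcription is 1 place where such genes can be compared by sequence. RefSeq promoter windows (GRCm38.p6, 250 bases before the annotated start to 50 after) matched 59 of the 80 genes, with 70 windows. A C at the annotated start followed by at least 4 pyrimidines stood in 18.6% of member windows and in 2.51% of all 32851 windows. This count needs the annotated start to be exact to the base. A window without such a start may therefore still belong to a TOP mRNA. The windows printed here belong to described genes that have such a start, since this tract is what ties the genes to mTOR. They run from 30 bases before the start to 20 bases from it on, 5′ to 3′ on the gene's strand, and capitals mark the pyrimidine tract. They lie at chr4:86857348-86857397 (minus, Rps6), chr3:90213629-90213678 (minus, Rps27), chr11:114668550-114668599 (plus, Rpl38), chr7:4792935-4792984 (plus, Rpl28), chr7:141447621-141447670 (plus, Rplp2), chr2:180257349-180257398 (plus, Rps21) and chr17:33955646-33955695 (minus, Rps18).
Rps6: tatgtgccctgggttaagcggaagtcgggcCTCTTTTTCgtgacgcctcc
Rps27: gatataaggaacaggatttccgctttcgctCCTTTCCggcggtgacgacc
Rpl38: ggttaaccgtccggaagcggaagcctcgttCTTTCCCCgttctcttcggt
Rpl28: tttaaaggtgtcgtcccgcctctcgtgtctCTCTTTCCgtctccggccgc
Rplp2: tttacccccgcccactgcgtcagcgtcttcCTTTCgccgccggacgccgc
Rps21: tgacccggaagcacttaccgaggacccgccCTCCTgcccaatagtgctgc
Rps18: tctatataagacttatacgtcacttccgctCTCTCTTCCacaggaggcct

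Other motifs were counted on both strands of the same windows. CCGGAAG, the core recognised by ETS factors such as GABP, stood in 35.7% of member windows and 8.86% of all windows. AAGATGGC, a YY1 motif, stood in 11.4% against 2.75%, and GGGCGG, a GC box, in 62.9% against 35.7%. CACGTG, the E-box that Myc binds, stood in 11.4% against 7.15%, and TATAAA in 10% against 13.6%. None of these counts locates a bound site. CCGGAAG also stands, unmarked, in the Rps21 and Rpl38 windows printed above, so it is not confined to windows without the tract. The windows of Rpl37, Rpl31, Rpl11 and Rpl26 lack a pyrimidine tract at the annotated start and hold CCGGAAG close to it, marked here in capitals. They lie at chr15:5116583-5116632, chr1:39367821-39367870, chr4:136053374-136053423 (minus) and chr11:68901536-68901585, the others on the plus strand.
Rpl37: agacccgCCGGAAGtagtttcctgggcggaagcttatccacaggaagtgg
Rpl31: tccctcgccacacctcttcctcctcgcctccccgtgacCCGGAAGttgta
Rpl11: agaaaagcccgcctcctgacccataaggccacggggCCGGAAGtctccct
Rpl26: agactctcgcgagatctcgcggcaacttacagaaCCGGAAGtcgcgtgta

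The 80 genes together varied more between HFD libraries than between chow libraries. On chow their summed level averaged 28311 ± 1864 in controls and 29226 ± 1897 in mutants (SD, n = 4 each). On HFD it averaged 36869 ± 9226 in controls and 28721 ± 6384 in mutants. The spread on HFD followed the title series. Series A stood at 38158 in its mutant and at 41098, 41418 and 41919 in its controls. Series D stood at 24778, 27106 and 24842 in its mutants and at 23039 in its control. The 8 chow libraries ranged from 26060 to 31309, between the HFD series with an overlap at the lower end. As a share of the column total, the genes held 3.65 to 3.95% in series A and 2.43 to 2.66% in series D.

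**Figure D1:**
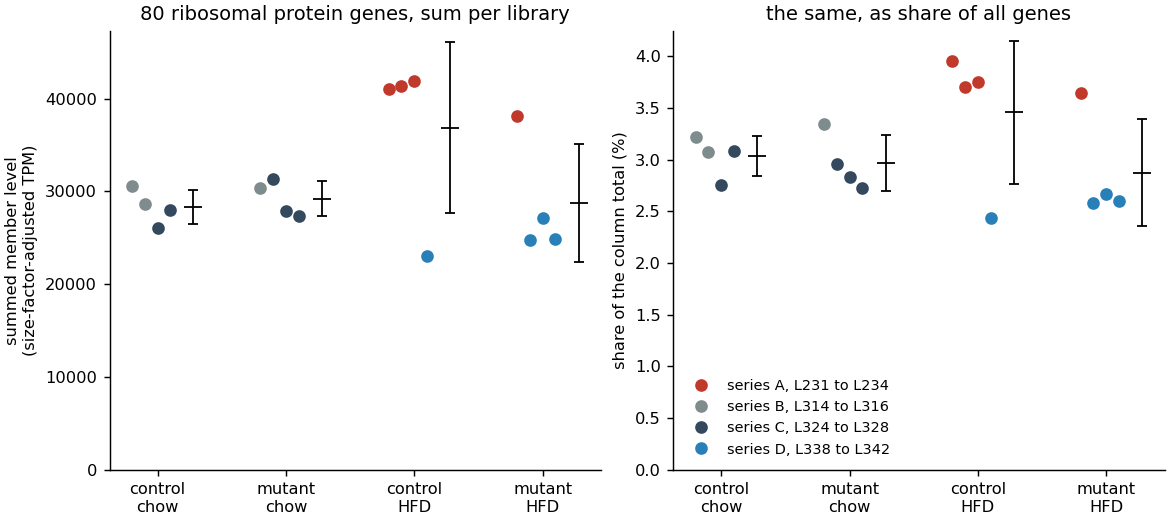
Summed level of the 80 ribosomal protein genes in each library, in size-factor-adjusted TPM (left) and as percent of the column total (right), by group. Points are libraries coloured by title series, and bars give mean ± SD of 4 libraries. The 4 libraries of titles L231 to L234 (series A) sit between 38158 and 41919 whatever their genotype, and those of titles L338 to L342 (series D) between 23039 and 27106.

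Within the set, levels spanned a wide range. The median of the gene means over 16 libraries was 359, 67 genes averaged 100 or more, and 10 averaged under 50. Rps27 was highest, with a mean of 1844, followed by Rplp1 at 1181, Rpl41 at 1028, Rpl36 at 943 and Rps21 at 867. These 5 genes held 19.0% of the summed mean level. Rps2 at 3.52, Rpl12 at 11.5, Rps18 at 13.9, Rpl5 at 15.0 and Rpl27 at 16.6 were lowest. For each of them, copies of similar sequence in the table held most of the summed signal, as described below. TPM is scaled per length, so if the inferred unit holds, these levels can be compared between genes, apart from that division among copies.

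The genes moved together. Around the 4 group means, the median Pearson correlation over 3160 pairs of members was 0.752, with quartiles of 0.494 and 0.899, against 0.00646 for pairs drawn from all tested genes. The first principal component held 64.0% of the members' variance. Its most extreme libraries were the control of series D at -0.675 and the mutant of series A at 0.484, the libraries of each HFD series whose genotype is in the minority there. Each is the only library of its group from its series. A series difference by itself places such a library farthest from its group mean. With the title series also taken out, the median correlation was 0.341. These correlations describe 16 libraries that share their scaling.

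Within HFD, the comparison of title series gave the clearest difference. It was taken from a limma fit with group means and a series term, which sets series D against series A at equal genotype. After Benjamini-Hochberg adjustment over 12704 genes, 63 of 80 members were called at 0.05, and all 63 were lower in series D. Over all tested genes, 25.2% were called in either direction, 11.6% lower and 13.5% higher. At an unadjusted p under 0.05, 68 members passed, against 37.8% of all genes. The median member difference was -0.66 on the log2 scale, with quartiles of -0.96 and -0.42, and the median over all tested genes was 0.04. Members without any overlap between the 4 libraries of each series numbered 68, all lower in series D (background 16%), and none was higher (background 19.6%). The 40S genes had a median difference of -0.50 with 25 of 32 called, and the 60S genes had -0.74 with 38 of 48 called.

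**Figure D2:**
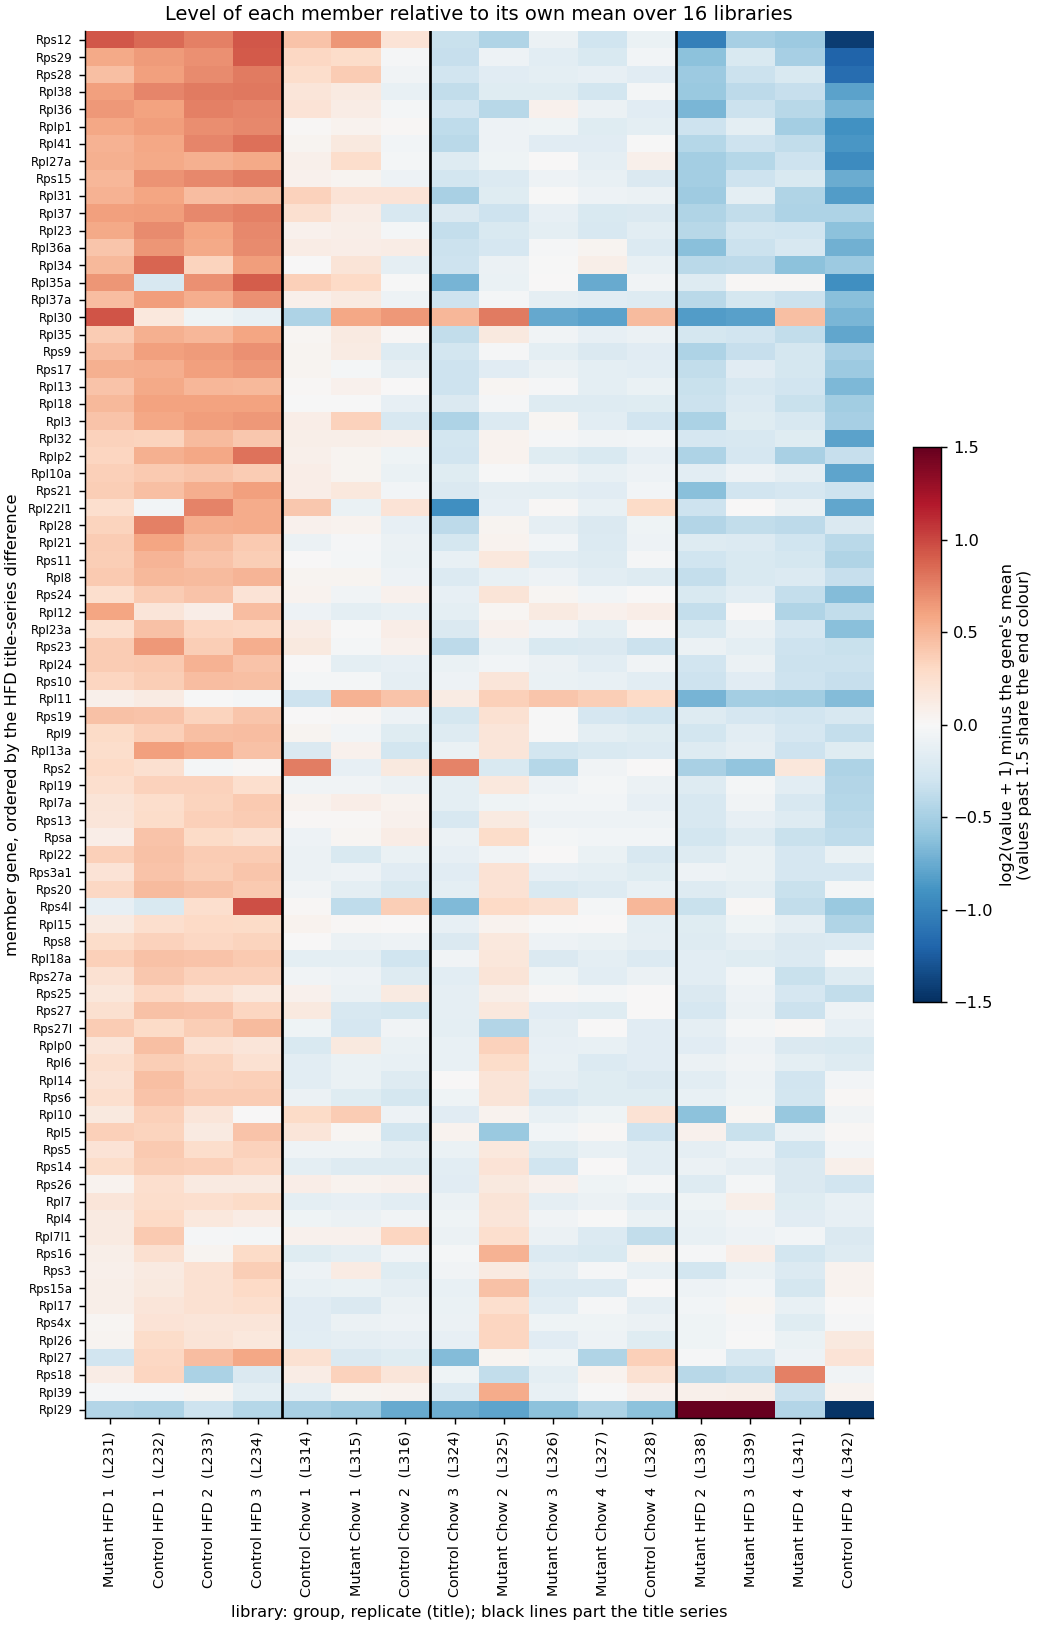
Level of each of the 80 genes in each of 16 libraries, as log2(value + 1) minus the gene's own mean, with genes ordered by the HFD title-series difference and libraries by title number. The first 4 columns (series A) are red for most genes and the last 4 (series D) blue, with Rpl39 and Rpl29 at the bottom as exceptions.

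The 6 members with the smallest adjusted p-values were Rpl23, Rps12, Rpl37, Rpl27a, Rpl18 and Rpl38. Rpl23, a 60S protein that can also bind the p53 regulator Mdm2 (chr11:97777527-97782437), stood at 316.5, 347.6, 320.8 and 350.1 in series A and at 159, 176, 173 and 139 in series D. Every library of series A lay well above every library of series D, and the 8 chow libraries lay between 166 and 226. The difference was -1.09 ± 0.10 (SE; limma, adjusted p = 0.000103), a fitted level 2.13-fold lower.

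Rps12, a small 40S protein (chr10:23785183-23787275), had the largest difference. It stood at 64.0, 60.3, 56.3 and 63.9 in series A and at 15.7, 23.1, 22.3 and 11.6 in series D. The groups did not overlap, and chow libraries filled the range from 23.8 to 52.9. The difference was -1.95 ± 0.18 (limma, adjusted p = 0.000103). With its copy Rps12-ps3 added, it was -0.30 ± 0.12 and no longer passed the threshold (limma, adjusted p = 0.0715).

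Rpl37, a zinc-finger protein of the 60S subunit (chr15:5116645-5119140), stood at 175, 176, 188 and 191 against 82.7, 87.5, 81.7 and 81.8. Its groups were tight and far apart, with a difference of -1.11 ± 0.11 (limma, adjusted p = 0.000117). The transcribed copy Rpl37rt moved the other way, from 52.0, 58.5, 29.9 and 22.7 in series A to 155, 111, 112 and 250 in series D. Summed over both, the difference was 0.23 ± 0.19 and did not pass (limma, adjusted p = 0.391).

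Rpl27a (chr7:109519147-109522367) stood at 128, 132, 128 and 132 against 61.7, 65.7, 71.1 and 45.5, a difference of -1.22 ± 0.12 (limma, adjusted p = 0.000117). Its row held 10.2% of the sum with its copy, and the summed difference was -0.61 ± 0.11 (limma, adjusted p = 0.00211). Rpl18 (chr7:45715457-45720836) stood at 528, 575, 575 and 575 against 302.4, 327.2, 297.9 and 263.3, a difference of -0.95 ± 0.09 (limma, adjusted p = 0.000117). In both, the control of series D was the lowest of the 8 HFD libraries. Rpl38, a short 60S protein needed for the translation of Hox mRNAs in the embryo (chr11:114668524-114672331), stood at 985, 1066, 1103 and 1111 against 436, 487, 505 and 369. Its difference was -1.31 ± 0.13 (limma, adjusted p = 0.000117).

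Abundant genes took part as well. Rplp1, which with Rplp0 and Rplp2 builds the stalk that draws translation factors to the ribosome, stood at 1682, 1744, 1828 and 1852 in series A. In series D it stood at 906, 1017, 792 and 601, clear of the other series. Its difference was -1.24 ± 0.14, against -0.86 ± 0.12 for Rplp2 and -0.43 ± 0.13 for Rplp0 (limma, adjusted p = 0.000192, 0.000428 and 0.0255). Rpl41, the shortest ribosomal protein, differed by -1.24 ± 0.15, and Rpl36 by -1.26 ± 0.14 (limma, adjusted p = 0.000214 and 0.000156). Rps27, the most abundant member, differed less, at -0.47 ± 0.14 (limma, adjusted p = 0.0234), and Rps21 differed by -0.80 ± 0.11 (limma, adjusted p = 0.000516). The stalk genes therefore passed together, with unequal sizes.

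Members with other known roles were called too. Rps6, the substrate of S6 kinase downstream of mTOR, stood at 603, 682, 658 and 661 against 467, 482, 416 and 513, a difference of -0.39 ± 0.11 (limma, adjusted p = 0.0242). Rpl11, which with Rpl5 and 5S RNA can bind Mdm2, differed by -0.67 ± 0.15 (limma, adjusted p = 0.00682), and Rpl5 at -0.38 ± 0.18 did not pass on its own row (limma, adjusted p = 0.132) but did with its copy added, at -0.34 ± 0.11 (limma, adjusted p = 0.0323). Rpsa, also known as the laminin receptor, differed by -0.53 ± 0.11 (limma, adjusted p = 0.00462). Rps27a, made as a fusion with ubiquitin, differed by -0.48 ± 0.11 (limma, adjusted p = 0.00612). Rpl3, next to the peptidyl transferase centre, differed by -0.92 ± 0.12 (limma, adjusted p = 0.000421), a difference of -0.01 ± 0.08 once Rpl3-ps1 was added (limma, adjusted p = 0.946).

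Of the 17 members that were not called, 15 had a lower fitted level in series D and did not pass. The smallest differences belonged to Rpl39, a tunnel protein, at 0.03 ± 0.16, Rps18 at -0.02 ± 0.28 and Rpl27 at -0.03 ± 0.22. With copies added, Rpl27 at -0.69 ± 0.11 and Rps18 at -0.32 ± 0.09 passed (limma, adjusted p = 0.00127 and 0.0161). Rpl39 stood at 166, 167, 171 and 152 against 178, 178, 134 and 175, with full overlap. Rpl26 and Rps4x, among the members with the smallest spread within groups, were at -0.08 ± 0.12 and -0.16 ± 0.11. Rps3, a 40S protein at the mRNA entry site, was at -0.24 ± 0.10 (limma, adjusted p = 0.0913).

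Within a genotype, each comparison of the HFD series has a single library on 1 side. Controls alone, 3 libraries against the single control of series D, gave 48 members called (13.9% of all genes) and a median of -0.76. Mutants alone, the single mutant of series A against 3, gave 35 members called (4.92% of all genes) and a median of -0.54. These comparisons assume that the single library varies like the others. Without the control of series D, 34 members were called (5.65% of all genes). The scale of the values moved the size. The summed level of series A was 1.63 times that of series D as deposited, 1.47 times when each library was rescaled to the same total, and 1.69 times with size factors recomputed from the table.

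The genotype comparison on HFD is tied to these series, because 3 of 4 controls lie in series A and 3 of 4 mutants in series D. No member was called between mutants and controls on HFD (0.0157% of all genes). At an unadjusted p under 0.05, 15 members passed (8.6% of all genes), 14 of them lower in mutants, and the median member difference was -0.32. Rpl28, a 60S protein, had the smallest p among them, with 330, 287, 289 and 169 in controls and 246, 144, 151 and 149 in mutants. The groups overlapped, since the control of series D lay below the mutant of series A. Its difference was -0.63 ± 0.20 (limma, adjusted p = 0.527). Rps3 stood at 273, 291, 321 and 256 in controls and 262.3, 205.3, 231.2 and 214.5 in mutants, a difference of -0.32 ± 0.11 (limma, adjusted p = 0.527).

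With the series as a term, the median member difference between genotypes on HFD was 0.02 and no member was called. Within series A the median was -0.10, and within series D it was 0.13. In series D, the control was below all 3 mutants in 43 of 80 members (30.1% of all genes), within their range in 23 and above them in 14 (30.9% of all genes). In series A, the mutant was below all 3 controls in 50 members (23.6% of all genes), within their range in 25 and above them in 5 (23.7% of all genes). Each of these orders rests on a single library of its genotype. Library weights, estimated from the spread around group means without a series term, gave 70 members called between genotypes (30.9% of all genes). Of these, 1 was higher in mutants, and the median was -0.53. Such weights count a library less the farther it lies from its group mean. Over the members, the farthest were the control of series D and the mutant of series A. The weighted fit therefore cannot tell genotype from title series.

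**Figure D3:**
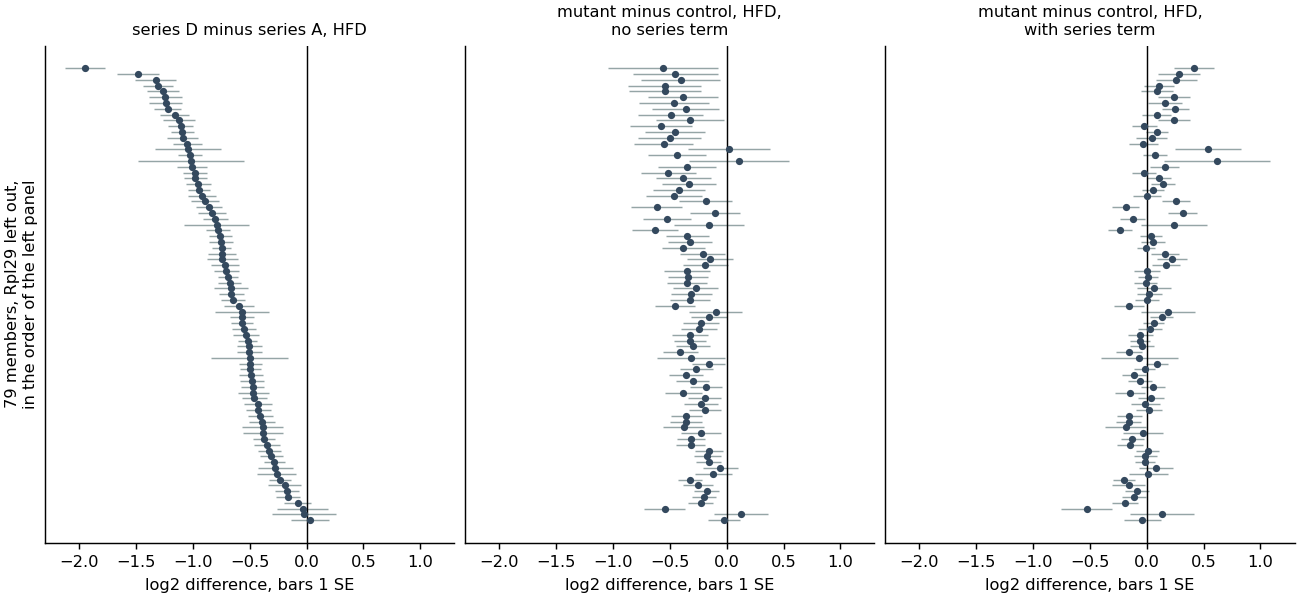
Fitted log2 differences of 79 members (points; bars 1 SE; Rpl29 lies off the scale and is left out), with genes in the same order in each panel. Series D minus series A is on the left, with a median of -0.66 over 80 members. Mutant minus control on HFD stands in the middle without a series term (median -0.32) and on the right with it (median 0.02).

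On chow, genotype moved the members little. No member was called (0.0236% of all genes), 1 passed an unadjusted p of 0.05 (6.08% of all genes), and the median difference was 0.05. Rps2 was that member, with 6.41, 3.82, 6.30 and 3.38 in controls and 2.98, 2.71, 2.23 and 3.19 in mutants, which do not overlap. Its difference was -0.63 ± 0.23 (limma, adjusted p = 0.791), and with its copies added it was -0.05. Rplp0 followed at 0.21 ± 0.15, with 240, 263, 261 and 250 in controls and 311, 358, 258 and 260 in mutants (limma, adjusted p = 0.92).

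Diet was tested in each genotype, and here each series lies within a single diet, so that diet and series cannot be told apart. In controls, no member was called (0% of all genes, 0 genes), 24 passed an unadjusted p of 0.05 (12.9% of all genes), all higher on HFD, and the median was 0.32. Rps14 stood at 715, 713, 690 and 584 on HFD and at 500.4, 487, 496 and 497 on chow, without overlap. Its difference was 0.44 ± 0.13 (limma, adjusted p = 0.223), and Rps6 had 0.46 ± 0.14 (limma, adjusted p = 0.224). Without the HFD control of series D, 42 members were called (7.33% of all genes), all higher on HFD.

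The diet difference in controls was also taken with each series alone, of which series D holds a single control. With the 3 HFD controls of series A, 59 members were called higher than on chow (15.7% of all genes). With the single HFD control of series D, 6 were called, all lower (0.291% of all genes), and the median was -0.28. In mutants, no member was called (0% of all genes), 2 passed an unadjusted p of 0.05 (6.86% of all genes), and the median was -0.05. The single HFD mutant of series A gave 6 members called (1.51% of all genes) and a median of 0.35. The 3 HFD mutants of series D gave none (0.0236% of all genes).

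Rpl11 had the smallest p for diet in mutants. It stood at 298, 266, 277 and 268 on chow and at 218, 127, 145 and 144 on HFD, without overlap. Its difference was -0.83 ± 0.20 (limma, adjusted p = 0.42). In controls it stood at 167, 279, 226 and 255 on chow and at 224, 206, 202 and 131 on HFD, which overlap, and the difference was -0.28 ± 0.20 (limma, adjusted p = 0.555).

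Set against all 8 chow libraries, the 4 libraries of series A were above every chow value in 53 of 80 members (7.79% of all genes), and below every chow value in none (7.93%). The 4 libraries of series D were below every chow value in 11 members (0.952% of all genes) and above in none (1.27%). Of 16 libraries, the highest value lay in series A for 70 members (28.6% of all genes), and the lowest lay in series D for 66 (20.9%), in 38 of these in its control (9.82%).

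The genotype by diet interaction called no member (0% of all genes), and 9 passed an unadjusted p of 0.05 (4.21% of all genes), all lower. Rps3 had -0.45 ± 0.15 and Rpl28 had -0.69 ± 0.29 (limma, adjusted p = 0.895 for each). The median was -0.40, and -0.06 with the series as a term.

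Within chow, series C stood slightly below series B. No member was called (0% of all genes), 14 passed an unadjusted p of 0.05 (11.6% of all genes), all lower in series C, and the median was -0.10. Rps12 stood at 44.8, 52.9 and 38.1 in series B and at 26.0, 23.8, 31, 26.7 and 30.7 in series C, without overlap. Its difference was -0.71 ± 0.16 (limma, adjusted p = 0.18), and 0.0033 with its copy added. Rpl31 stood at 407, 371 and 369 against 228, 283, 319, 303 and 302, also without overlap, a difference of -0.45 ± 0.13 (limma, adjusted p = 0.247).

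Paralogue pairs were compared by level on the TPM scale, the mean of 16 libraries. Rps27 at 1844 exceeded Rps27l, known to respond to p53, at 482. Rpl22 at 307 exceeded Rpl22l1 at 67.9, Rpl7 at 326.9 exceeded Rpl7l1 at 27.0, and Rps4x at 359 exceeded the annotated pseudogene Rps4l at 20.8. Within each pair, the ranges over 16 libraries did not overlap. Between HFD series, Rps27l differed by -0.46 ± 0.11, close to Rps27, and Rpl22 by -0.52 ± 0.09 (limma, adjusted p = 0.00962 and 0.00124). Rpl22l1 at -0.79 ± 0.29, Rpl7l1 at -0.27 ± 0.15 and Rps4l at -0.50 ± 0.34 did not pass, and Rpl7 passed at -0.31 ± 0.10 (limma, adjusted p = 0.0396). Rpl3l, Rpl10l and Rpl39l were not analysed here.

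Copies of similar sequence limit what a single row means. Rows whose transcripts shared at least 30% of their 31-base words with a member were counted as its copies, which gave 42 copies of 31 members. The shares ran from 30.1% (Gm16061, of Rps2) to 100%, so not every copy is near-identical. Rpl37rt shared 39.4%. Most copies (31) are processed pseudogenes. The authors' tool divides shared reads among such transcripts by estimation. In 14 members the gene's own row held under 50% of the sum with its copies, and 7 lay lower still, from Rps2 to Rpl5, at 0.294 to 5.0%. Rps2 averaged 3.52 and its copies 1191. Rpl12 averaged 11.5 and its copy 419, Rpl27 16.6 and 562, Rps18 13.9 and 450, and Rpl5 15.0 and 285.

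Rpl29, a 60S protein, was the extreme case. It lay between 2.50 and 6.80 in 14 libraries and at 179 and 194 in 2 mutants on HFD of series D. In those 2 libraries both copies, Gm13841 and Gm8210, stood at 61.3 and 62.8 each, against 108 to 167 in the other 14. Rpl29 was thus high in the libraries where its copies were low. Rpl29 differed between genotypes on HFD by 2.58 ± 0.87 on its own row and by -0.02 with its copies added, and neither passed the threshold.

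Rpl30 behaved in a similar way, with values from 56.1 to 196 and its copy Gm12191 from 105 to 359. In series A the mutant had 196 in Rpl30 and 108 in the copy, and the controls had 113, 96.9 and 93.7 against 359, 303 and 276. Rpl30, Rps12 and Rpl29 had the largest spread within groups, with SDs of 0.69, 0.77 and 1.39 on the log2 scale. Rpl26, Rps4x and Rps3 had the smallest, at 0.12 each.

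**Figure D4:**
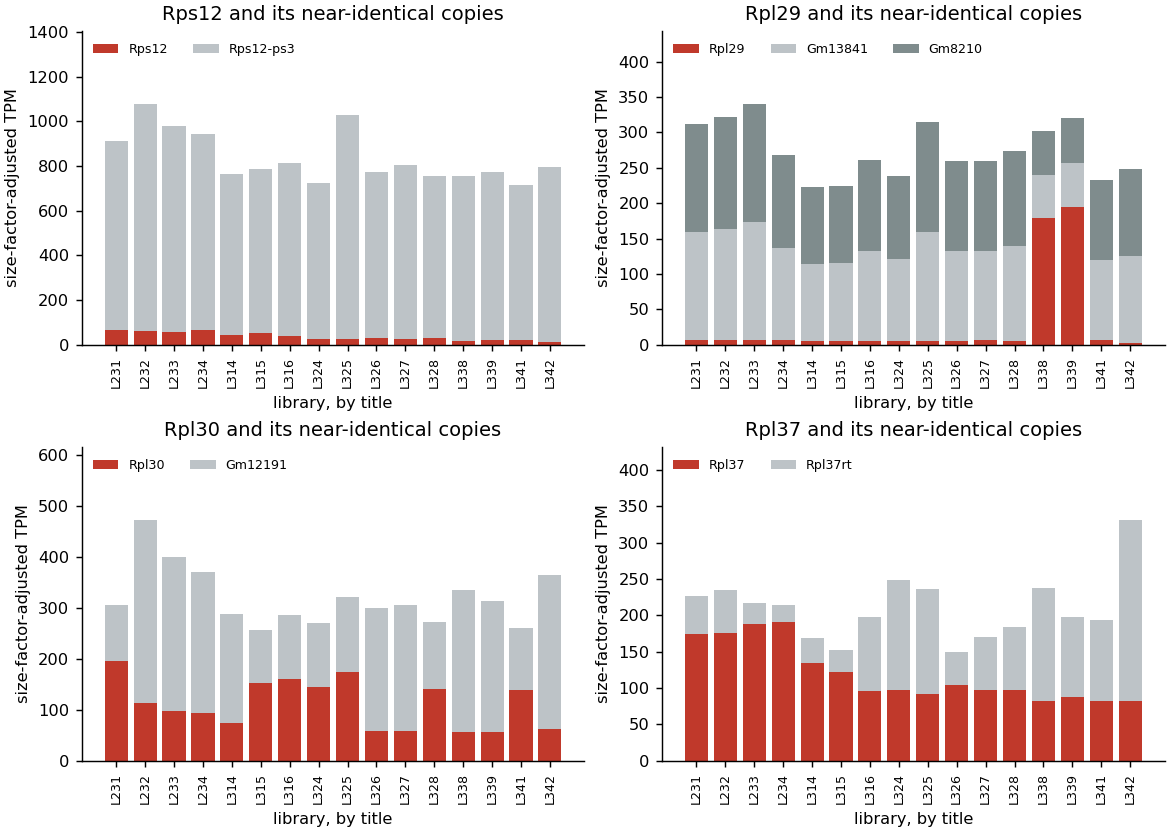
Rps12, Rpl29, Rpl30 and Rpl37 (red) stacked with their copies of similar sequence (grey) in each library, in size-factor-adjusted TPM, by title number. The division between a gene and its copies shifts between libraries, as for Rpl29 at 179 and 194 in the first 2 libraries of series D. In proportion, the stacked height changes less than the gene's own row for Rps12, Rpl29 and Rpl30. For Rpl37 the stack ranges from 150 to 332, against 81.7 to 191 for its own row.

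Adding copies to their members left the HFD series difference in place at a smaller size. The median over 80 members was -0.51, with 61 called (25.2% of all genes), 57 of them among the 63 called on single rows. The 49 members without copies had a median of -0.55 with 40 called. The 31 members with copies had -0.71 with 23 called on their own rows and -0.48 with 21 called as sums.

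Genes with related functions were counted in the same fit, from lists chosen with earlier results known. Of 77 mitochondrial ribosomal proteins, which serve the separate ribosome of mitochondria, 43 were lower and 1 was higher in series D, with a median of -0.38 (over all genes, 11.6% lower and 13.5% higher). Mrpl14 fell from 209 ± 27 to 84.5 ± 12 (mean ± SD, n = 4 each), a difference of -1.29 ± 0.17, and Mrps12 from 65.0 ± 5.6 to 32.7 ± 4.8 (limma, adjusted p = 0.000346 and 0.000327). Of 26 translation factors and other TOP mRNAs, 9 were lower and 3 higher, with a median of -0.13. Fau, which encodes ribosomal protein S30 fused to a ubiquitin-like protein, fell by 1.66 ± 0.22 (limma, adjusted p = 0.000401). The symbol rule did not reach it.

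Of 54 ribosome biogenesis genes, 12 were lower and 1 was higher, with a median of -0.19. Over all genes, 11.6% were lower and 13.5% higher, with a median of 0.04. The count in either direction was near the 25.2% over all genes, but it leaned to lower levels in series D, as in the members. Imp3, which processes the small subunit, fell by 0.69 ± 0.08, and the snoRNP protein Nhp2 fell by 0.83 ± 0.12 (limma, adjusted p = 0.000265 and 0.00057). Of 22 genes that signal growth to ribosomes, 4 were lower and 2 higher, with a median of 0.09, again near the share over all genes. The mTORC1 component Akt1s1 fell by 0.84 ± 0.18, and the RNA-binding protein Larp4 was higher by 0.62 ± 0.13 (limma, adjusted p = 0.00489 and 0.00417). Neither passed without the HFD control of series D (limma, adjusted p = 0.146 and 0.0697). In the 5 comparisons of groups and in the chow series, no gene of these 4 lists was called. The largest count there at an unadjusted p under 0.05 was 23 of 77 mitochondrial ribosomal proteins for diet in controls. All 23 were higher on HFD (over all genes, 12.9% passed in either direction).

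The series difference was also set beside the start windows. The 13 genes with such a window had a median HFD series difference of -0.68, from -1.31 (Rpl38) to -0.02 (Rps18), against -0.62 in the 46 with other windows only (from -1.95 to 0.03) and -0.72 in the 21 with no window (from -1.48 to 1.03). The sets were parted by the base at the annotated start, so they need not separate TOP mRNAs from others. The differences between these sets were not tested.

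Transcript length moved with the series difference, among members and among all other genes. Member transcripts are short, with a median of 704 bases (gene medians of 367.5 to 3706). Across members, Spearman's rho of length with the HFD series difference was 0.43 (80 genes), and across 12087 other protein-coding genes it was 0.331. Other protein-coding genes under 600 bases had a median of -0.31 and those of 4000 bases or more had 0.26. The median of members was below that of other genes in the 4 length classes that hold any, of which the class from 2000 to 4000 bases has 2 members. Under 600 bases their median was -0.95 over 27 genes. From 600 to 1000 bases it was -0.57 over 38 members, against -0.16 over 1825 other genes. From 1000 to 2000 bases it was -0.41 over 13 members, against -0.08 over 3462. Genes are not independent replicates, and the part of length in the members' difference was not tested.

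**Figure D5:**
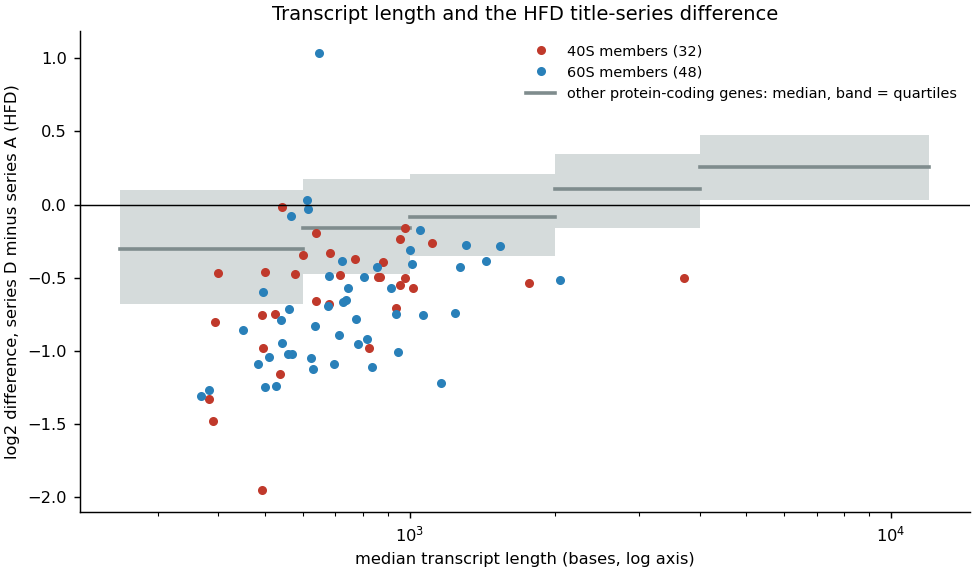
Fitted log2 difference of series D from series A against median transcript length (log axis), for 32 40S and 48 60S members (points) and for other protein-coding genes in 5 length classes (grey line, median; band, quartiles). Most members lie below the median of other genes of their length, and both fall towards short transcripts, with other genes under 600 bases at a median of -0.31.

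Markers of cell types were counted beside the members, against 25.2% of all genes called between the HFD series. Of 5 red cell genes, 2 were called lower in series D, and their summed level ranged from 4830 to 6922 in series A and from 1695 to 4547 in series D. Of 6 stellate cell genes, 2 were called higher (189 to 211 against 241 to 278). Of 6 endothelial genes, 2 were called higher (122 to 135 against 148 to 167). Of 10 hepatocyte genes, 1 was called lower, and the sums overlapped (97951 to 128185 against 109545 to 137324). Of 10 Kupffer cell genes, 1 was called lower (455 to 663 against 341.2 to 443.6). None of 12 lymphocyte and 4 bile duct genes was called. No marker was at 0 in any library, and the part of these cells in the members' difference was not tested.

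On chow, the lymphocyte markers stood apart in mutant replicates 1 and 2, with sums of 305 and 695 against 31.9 to 77.3 in the other 6 chow libraries. Mutant replicate 2 also had the highest chow value of several members. Rps6 stood at 579 there against 429 to 446 in the other mutants on chow, and Rpl26 at 838 against 597 to 635. The part of lymphocytes and of the other cell types in these values was not tested.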

How the data were processed

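The liver libraries were made and sequenced by a provider with a NEBNext Ultra II kit. The authors assigned reads to the mouse transcriptome (mm10) with kallisto and tested genes with sleuth. Tool versions are not given in the sources used here. The deposited values are a signal per gene, inferred to be TPM adjusted by size factors. Depth is unknown, so precision comes from the spread between libraries. Libraries were grouped by their genotype and treatment labels.

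Differences were tested here with limma 3.58.1 (R 4.3.3) on log2(value + 1), with a mean-variance trend and Benjamini-Hochberg adjustment over 12704 genes, threshold 0.05. Genes that reached 1 in 3 libraries or fewer were left out. The study's likelihood-ratio test needs resampled estimates that the table does not carry. The fit was tested on simulated data. Differences on this scale understate changes of low values.

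Members and lists were chosen with earlier results of these data known. Genes named were the members past the threshold (at most 6 per direction and comparison, otherwise the 2 with the smallest p), the 5 highest and 5 lowest, a set fixed by role, the 3 with the largest and smallest spread, and at most 3 per related list. Gene positions came from GENCODE M21, GRCm38.

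Alternatives covered the pseudocount, the filter, the scaling, the trend, library weights, the libraries fitted, each library left out and the title series as a term. Summing copies of similar sequence, and comparing within a title series or within a genotype across series, were chosen after seeing the data.

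A gene of a related list that the rule names is not reported here.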

Additional observations from a re-analysis of the deposited data

Results flagged for a closer look

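Among the 39 described members and the 2 summed measures, 35 values lay far from the other 3 libraries of their group by Dixon's gap ratio at its 95% critical value. Chance gives about 1 in 20 groups where measures are independent, and 164 groups were searched. The members moved together, and some were described because they differed between the HFD series. In an HFD group, such a difference sets apart the only library of its series. The number of cases is therefore a description and cannot be weighed against chance. The control of series D on HFD gave 17 of the 35 and the mutant of series A gave 9.

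The HFD control of series D held a summed level of 23039 against 41098 to 41919 in the other HFD controls, and 2.43% of the column total against 3.70 to 3.95%. It was likewise low in Rplp1 (601), Rpl36 (549), Rps6 (513), Rpl38 (369), Rps27a (361), Rps4x (354), Rpl7 (300.0), Rpl22 (283), Rpl18 (263), Rpl31 (179), Rpl23 (139), Rpl37 (81.8), Rpl27a (45.5), Rpl3 (39.4) and Rps12 (11.6). The HFD mutant of series A held 3.65% of the total against 2.58 to 2.66% in the other HFD mutants. It was high in Rpl41 (1407), Rpl38 (985), Rpl18 (528), Rpl23 (316.5), Rpl28 (246), Rpl37 (175), Rpl27a (128) and Rps12 (64.0). In each of these cases the library is the only one of its group from its title series.

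The remaining cases lie on chow. Mutant replicate 2 was high in Rpl26 (838), Rps6 (579), Rps4x (447) and Rpl7 (371) and low in Rpl5 (9.68). Mutant replicate 1 was high in Rps21 (943). Control replicate 1 was high in Rpl37 (134) and low in Rps4x (318), and control replicate 3 was high in Rpl7 (306).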

How the results depend on the processing

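Counts of members called stayed equal to the main count, or within a fixed ratio of it, under 142 of 151 recomputed settings. In every comparison but the HFD series the main count was 0, so many of these are counts that stayed at 0. Medians moved by less than the spread between libraries under 139 of 151. For the group comparisons that spread was 0.25 around group means, which includes the HFD series difference. For the series comparisons it was 0.086, with the series taken out. These totals therefore describe the settings and do not measure how robust the group comparisons are. The HFD series gave 34 to 62 members called and medians of -0.76 to -0.54 when libraries were left out in turn, the lowest count without the control of series D. Its median was -0.51 with equal totals, -0.53 with totals without the 20 most abundant genes and -0.51 with copies summed. Controls alone gave -0.76, and mutants alone gave -0.54 with 35 called. Rescaling moved the median of all genes there to 0.17 and 0.16.

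Library weights were estimated around group means, without a series term. Genotype on HFD gave 70 members called with these weights, a median of 0.017 with the series term and 0.13 within series D. The interaction median was -0.063 with that term. Diet in controls gave 58 called with library weights, 0 to 42 with libraries left out, 59 with the HFD controls of series A, and 6 with that of series D at a median of -0.28. Diet in mutants gave 1 called with library weights, and 6 with the HFD mutant of series A at a median of 0.35. Summing copies turned Rpl37 between HFD series to 0.23 and Rps12 between chow series to 0.0033.

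Mean summed levels moved with the scale. With equal totals, controls on chow had 30337. Without the 20 most abundant genes in the total, the groups had 44421 (controls, chow), 43920 (mutants, chow), 52624 (controls, HFD) and 44099 (mutants, HFD). Without the 5 most abundant members, chow controls had 22930 and chow mutants 23861. No paired analysis was possible because the labels give no replicate numbers to pair libraries by (those printed follow accession order). Depth is unknown, and 4 libraries per group limit the precision.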
